A study of Mus musculus with 9 samples.

Results

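The TAFA genes (Fam19a1 to Fam19a5) encode a family of small secreted proteins with a chemokine-like pattern of cysteines. The 5 members were taken by gene symbol from the 31053 genes of the count tables, and each had at least 1 UMI (unique molecular identifier, the count of a captured RNA molecule) in a retained nucleus. They were measured by single-nucleus RNA sequencing of cortex and hippocampus from 9 male wild-type C57BL/6 mice, 3 per group and 1 library per mouse. The groups were young AAV-EGFP (5 months old), aged AAV-EGFP (19 months old) and aged AAV-B3GNT3 (19 months old), all taken 8 weeks after retro-orbital injection of the virus. By the study's methods, aged mice came from the National Institute on Aging and young mice from Jackson Laboratories. Supplier and age therefore cannot be told apart in the age comparison. In every group the PHP.V1 capsid and the short CLDN5 promoter directed expression to brain endothelial cells (BECs), so the young and aged controls also carried a virus and EGFP. AAV-B3GNT3 added the glycosyltransferase B3GNT3, which extends mucin-type O-glycans. The study asked how brain cells changed with age and after endothelial glycosylation was raised again. The family was chosen from earlier results on Fam19a2 in microglia, so Fam19a2 values are given as a description with no test, and of the other 4 members Fam19a1, Fam19a4 and Fam19a5 were tested and Fam19a3 was too low to test.

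TAFA proteins are made mainly in the nervous system, and several members bind neurexins, the presynaptic adhesion proteins that organise synapses. Cell surface receptors have also been described for some of them, among them GPR1 for TAFA1, FPR1 for TAFA4, and S1PR2 and LRRC4B for TAFA5. TAFA2 has been linked to the survival of hippocampal neurons and to memory, and TAFA4 is best known from touch-sensing neurons of the dorsal root ganglia. In nuclei captured in droplets, RNA released by broken cells (free RNA) enters every droplet and gives UMIs of neuronal genes in cells that do not express them.

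The last 300 bases of the coding sequences of Fam19a1 and Fam19a2 are shown because these members had the most UMIs, in all nuclei and in microglia-like nuclei. They come from the GENCODE vM21 annotation of GRCm38 (bases 103 to 402 of Fam19a1 and 109 to 408 of Fam19a2, stop codon included), are printed 5′ to 3′, and carry in capitals the in-frame TGT and TGC codons, which encode cysteine.
Fam19a1: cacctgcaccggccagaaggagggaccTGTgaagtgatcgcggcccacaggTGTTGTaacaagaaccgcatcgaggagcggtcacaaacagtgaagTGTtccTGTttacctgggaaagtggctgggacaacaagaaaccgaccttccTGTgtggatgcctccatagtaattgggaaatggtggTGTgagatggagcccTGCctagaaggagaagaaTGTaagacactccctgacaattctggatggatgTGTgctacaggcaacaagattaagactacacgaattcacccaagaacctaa
Fam19a2: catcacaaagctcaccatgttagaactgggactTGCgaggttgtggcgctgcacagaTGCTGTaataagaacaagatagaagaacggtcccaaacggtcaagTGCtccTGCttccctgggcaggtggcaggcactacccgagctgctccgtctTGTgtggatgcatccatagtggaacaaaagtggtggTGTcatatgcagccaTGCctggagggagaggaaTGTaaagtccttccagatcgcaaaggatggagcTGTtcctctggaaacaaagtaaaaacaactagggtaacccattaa
Both stretches hold 10 such codons, as do the last 300 coding bases of Fam19a3 and Fam19a4, and those of Fam19a5 hold 8. Over whole coding sequences the pair was identical at 61.3% of aligned positions, and its longest identical run was 11 bases. Over all pairs of members, identity lay between 56.1% for Fam19a2 with Fam19a5 and 71.1% for Fam19a3 with Fam19a4, and no identical run was longer than 17 bases. The coding sequences of the members are therefore not near-identical copies of each other.

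On GRCm38, Fam19a1 lies on the plus strand at chr6:96113154-96657198, Fam19a2 on the plus strand at chr10:123263996-123741204, Fam19a3 on the minus strand at chr3:104767406-104781840, Fam19a4 on the minus strand at chr6:96831203-97060413 and Fam19a5 on the plus strand at chr15:87544299-87759364. Fam19a1 and Fam19a2 span 544 and 477 kb, of which 0.775% and 0.983% are exonic, so nearly all of both genes is intron. Fam19a1 overlaps the counted gene 1700123L14Rik on the opposite strand, and Fam19a3 overlaps Ppm1j in the same way. Whether strand was used in counting is not given in the sources used here.

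The 9 libraries held 6331 to 10264 barcodes and 47332047 to 79964605 UMIs each, and 70304 nuclei were retained. Clusters were named from marker genes as 17 neuron types and 8 non-neuronal classes with enough nuclei in every library, and 5332 nuclei in broad clusters stayed unnamed. When neurons were clustered on their own, 531 to 1430 nuclei per library stayed unnamed, and these enter no neuron type. That clustering also took in nuclei from unnamed broad clusters, so the unnamed counts can overlap and are not to be added. The label gives cortex and hippocampus, but 76 to 427 nuclei per library expressed markers of direct-pathway striatal neurons such as Drd1, and 57 to 293 expressed those of indirect-pathway neurons such as Drd2, so striatal tissue was also present. Of 77081 distinct barcodes, 734 occurred in more than 1 library, with 7 to 37 shared by a pair of libraries.

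Levels are given as CPM, a gene's UMIs per 1000000 UMIs summed over the nuclei of a cell type in a mouse, scaled by TMM (edgeR's normalisation for library composition) between mice. Fam19a1 and Fam19a2 were neuronal genes for the most part. Of 367698 Fam19a1 UMIs, 91.6% lay in neuron clusters, and 46.5% of all nuclei held at least 1. Of 216818 Fam19a2 UMIs, 90.1% lay in neuron clusters, and 42.6% of nuclei held at least 1. Fam19a5 was more widely spread, with 80686 UMIs of which 65.9% lay in neuron clusters. Fam19a4 had 3133 UMIs and Fam19a3 had 23, from 0 to 8 per library, so no level of Fam19a3 could be compared. Fam19a1 and Fam19a2 passed the filter on low counts in all 25 types, Fam19a5 in 24, Fam19a4 in 3 and Fam19a3 in 0.

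Fam19a1, a ligand described for neural stem and nerve cells, was high in a few glutamatergic types. Its level was 3903 CPM ± 681 (SD, n = 9) in Layer 5 extratelencephalic neuron-like nuclei, with a range of 2880 to 5002. Of the 1088 nuclei of this type, 249 formed a cluster that passed the Layer 5 markers but shared 5 of its 10 leading genes (Ndst4, Stac, Gm2115, Gm2164 and Gpr161) with the CA1 and subiculum neuron-like cluster, and whether the type includes nuclei of that kind was not tested. The Fam19a1 level was 3336 ± 1156 in CA3 neuron-like, 3102 ± 893 in CA1 and subiculum neuron-like and 2093 ± 698 in upper-layer cortical neuron-like nuclei, and 1350 ± 396 in dentate granule neuron-like nuclei. The ranges of these neighbours in the order overlapped, and dentate granule neuron-like nuclei (lowest 758) did not overlap the next class, oligodendrocyte precursor-like nuclei (632 ± 74.9, highest 713). At the other end stood Layer 6 corticothalamic neuron-like nuclei, with 44.4 ± 21.3 CPM. Microglia-like nuclei came 9th of 25 types, with 275 ± 146 CPM and a range of 74.7 to 538.

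Fam19a2 followed another order. Dentate granule neuron-like nuclei had 2002 CPM ± 307 (SD, n = 9), middle-layer cortical neuron-like 1387 ± 129, Parvalbumin interneuron-like 1221 ± 111 and Vip interneuron-like 1145 ± 102. Each of these overlapped its neighbour, and the lowest Vip interneuron-like value (1047) lay above the highest of the next class, oligodendrocyte precursor-like nuclei (620 ± 83.8, highest 763). The types after it ran from 583 CPM in Sncg interneuron-like to 59.2 (41.8 to 85.2) in CA1 and subiculum neuron-like nuclei, each overlapping the next. Microglia-like nuclei came 16th of 25 types, with 142 ± 89.9 CPM. CA1 and subiculum neuron-like nuclei were thus among the highest for Fam19a1 and the lowest for Fam19a2, and across the 25 types the log2 levels of the pair correlated weakly (Pearson r = 0.192, a description over types that share libraries).

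Among the 25 types Fam19a4 was highest in oligodendrocyte precursor-like nuclei, which are the dividing progenitors of myelinating cells. The level there was 93.1 CPM ± 13.9 (n = 9), with a range of 72.0 to 113, which lay above the range of the next type, and every other type averaged at most 6.89 CPM. Subcortical glutamatergic neuron-like nuclei were too few to test, because aged AAV-B3GNT3 replicate 1 held none. In the other 8 samples they had a pooled Fam19a4 level of 359 CPM, from 237 to 633 on raw totals.

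Fam19a5 was highest in CA3 neuron-like nuclei, at 536 CPM ± 132 (n = 9), followed by oligodendrocyte-like nuclei at 362 ± 80.3, CA1 and subiculum neuron-like at 346 ± 52.7, Lamp5 interneuron-like at 304 ± 58.7 and oligodendrocyte precursor-like nuclei at 297 ± 49.6. All neighbours in its order overlapped. Microglia-like and Layer 6 corticothalamic neuron-like nuclei were lowest, at 33.1 ± 16.8 and 32.4 ± 7.53 CPM. Of the 4 counted members, it was thus the one with a myelinating class near the top of its order.

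Levels of different members were set side by side within a type per kb of gene span, a scale that assumes that reads were counted over introns, which the sources used here do not give. In dentate granule neuron-like nuclei Fam19a2 had 4.20 CPM per kb and Fam19a1 2.48. In oligodendrocyte precursor-like nuclei the 4 counted members lay closer together, at 1.38 for Fam19a5, 1.30 for Fam19a2, 1.16 for Fam19a1 and 0.406 for Fam19a4 (CPM per kb), an order that turns on the CPM scale, where Fam19a1 (632) and Fam19a2 (620) stood above Fam19a5 (297). In microglia-like nuclei the values per kb were 0.506 for Fam19a1, 0.298 for Fam19a2, 0.154 for Fam19a5 and 0.00859 for Fam19a4.

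**Figure D1:**
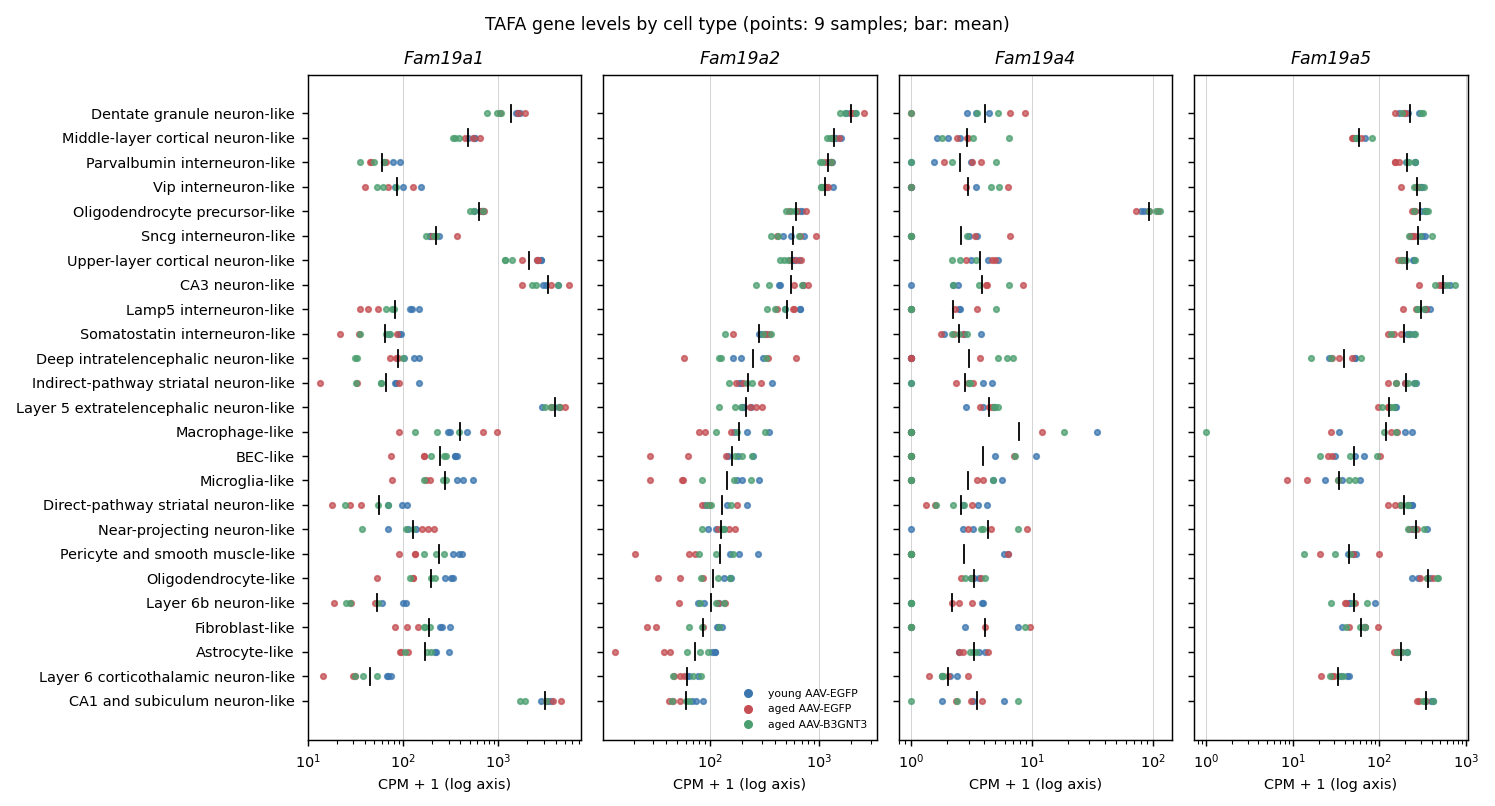
Levels of Fam19a1, Fam19a2, Fam19a4 and Fam19a5 in 25 cell types, as CPM + 1 on a log axis, with 1 point per mouse coloured by group and a bar at the mean of 9. Types are ordered by Fam19a2, from 2002 CPM in dentate granule neuron-like to 59.2 in CA1 and subiculum neuron-like nuclei. Fam19a4 stands out only in oligodendrocyte precursor-like nuclei.

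Genes with the most similar pattern over the 25 types were sought among 11358 genes that reached 20 CPM in some type, by Pearson r of log2 levels. They were Slc26a4 (r = 0.841), Syt17 (0.726) and Cerkl (0.721) for Fam19a1, and Adamts17 (0.776), Tmem145 (0.772) and Pparg (0.738) for Fam19a2. For Fam19a4 they were Susd5 (0.918), Sapcd2 (0.903) and 5730559C18Rik (0.890), and for Fam19a5 Vldlr (0.780), Rragb (0.753) and Nkain3 (0.746).

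The first comparison asked what differed with age between the AAV-EGFP groups, by edgeR's quasi-likelihood test on sums per mouse with p-values adjusted over all genes of the type. Fam19a1, Fam19a4 and Fam19a5 gave 52 gene and type pairs, and 10 of them passed an adjusted p of 0.05, all lower in aged mice. Over all genes, 5.25% of pairs passed, 2.72% lower and 2.52% higher, and among the types with a call this share ran from 1.12% in Lamp5 interneuron-like to 21.4% in oligodendrocyte-like nuclei. Fam19a1 fell in 7 of 25 types, Fam19a5 fell in 3 of 24, and Fam19a4 passed in 0 of 3. The median log2 fold change of all genes lay between -0.013 and 0.045 in every type.

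In Layer 6 corticothalamic neuron-like nuclei, Fam19a1 was 66.2, 68.7 and 73.4 CPM in young mice and 30.2, 28.4 and 13.4 in aged AAV-EGFP mice. The groups did not overlap, and the difference was -1.57 ± 0.26 on the log2 scale (SE, edgeR adjusted p = 0.00346). In Lamp5 interneuron-like nuclei it was 123, 118 and 147 CPM in young and 34.6, 53.6 and 41.7 in aged mice. All aged values were again below all young ones (log2 fold change -1.55 ± 0.21, edgeR adjusted p = 7.22e-05). These are neuron types in which Fam19a1 is low. The call in Layer 6 corticothalamic neuron-like nuclei was lost without the upper limit on genes per nucleus (-1.34, edgeR adjusted p = 0.0562).

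The other 5 calls were in non-neuronal classes. In microglia-like nuclei Fam19a1 was 538, 368 and 425 CPM in young and 174, 192 and 74.7 in aged AAV-EGFP mice (log2 fold change -1.62 ± 0.30, edgeR adjusted p = 0.00979). In oligodendrocyte-like nuclei it was 274, 317 and 333 CPM against 125, 127 and 51.7 (-1.61 ± 0.33, adjusted p = 0.00853). Pericyte and smooth muscle-like (-1.69 ± 0.26, adjusted p = 0.000822), fibroblast-like (-1.36 ± 0.23, adjusted p = 0.000924) and astrocyte-like nuclei (-1.31 ± 0.21, adjusted p = 0.00201) also passed. In all 5 classes the 3 aged values lay below the 3 young values. Without doublet removal the calls in microglia-like (-1.03, adjusted p = 0.151), astrocyte-like (-0.88, adjusted p = 0.0620) and pericyte and smooth muscle-like nuclei (-0.74, adjusted p = 0.0905) were lost, and without young replicate 1 so was that in microglia-like nuclei (-1.45, adjusted p = 0.0516).

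The types with the highest Fam19a1 levels did not show this. In Layer 5 extratelencephalic neuron-like nuclei Fam19a1 was 2880, 4369 and 3854 CPM in young and 5002, 4406 and 3615 in aged AAV-EGFP mice, and the groups overlapped. Among 6 types with a mean of at least 500 CPM, 0 passed, and log2 fold changes ran from -0.22 to 0.24. Among 19 types below 500 CPM, 15 had a negative log2 fold change, 7 passed, and the median was -1.36. The 500 CPM line was drawn after the values were seen, and over the 25 types log2 level and log2 fold change had r = 0.570 as a description.

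The estimated free RNA was lower in aged AAV-EGFP than in young mice in the types with a Fam19a1 call, with ranges that overlapped in microglia-like and Lamp5 interneuron-like nuclei and in no other. It was estimated per mouse and class from genes of other cell types, as an upper limit. In oligodendrocyte-like nuclei it was 22.5 to 27.1% of UMIs in young mice, 11.0 to 15.2% in aged AAV-EGFP mice and 21.3 to 27.7% in aged AAV-B3GNT3 mice, and in microglia-like nuclei it was 28.4 to 39.0%, 13.7 to 28.7% and 31.9 to 33.9%. In Layer 6 corticothalamic neuron-like nuclei it was 11.9 to 17.5% in young and 5.85 to 11.2% in aged AAV-EGFP mice, and in Lamp5 interneuron-like nuclei 11.9 to 14.8% (median 14.7%) and 4.59 to 12.2% (median 11.3%). After this share was subtracted, 0 of 1344 Fam19a1 UMIs were left in Layer 6 corticothalamic neuron-like, 33 of 470 in Lamp5 interneuron-like, 103 of 904 in microglia-like and 1055 of 8542 in oligodendrocyte-like nuclei, against 55974 of 57585 in Layer 5 extratelencephalic neuron-like nuclei. Of the 7 Fam19a1 calls, the one in oligodendrocyte-like nuclei still passed after subtraction (edgeR adjusted p = 0.00454, with 3 of 9 samples at 0), those in astrocyte-like (log2 fold change -0.20, adjusted p = 0.958) and pericyte and smooth muscle-like nuclei (adjusted p = 0.0665) did not, and the other 4 fell under the filter on low counts. The fitted differences in oligodendrocyte-like and in pericyte and smooth muscle-like nuclei were larger after subtraction than before it (log2 fold change -3.82 in the latter), but samples at 0, which numbered 2 of 9 in pericyte and smooth muscle-like nuclei, make such a size depend on the prior count. In counts summed over the nuclei of a class, fewer expressing cells, less RNA per cell and less free RNA cannot be told apart.

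Fam19a5 was called lower in aged mice in neurons. In Parvalbumin interneuron-like nuclei it was 253, 199.8 and 254 CPM in young mice and 152, 149 and 167 in aged AAV-EGFP mice (log2 fold change -0.60 ± 0.13, edgeR adjusted p = 0.0184). In direct-pathway striatal neuron-like nuclei it was 236, 217 and 237 against 171, 151 and 123 CPM (-0.63 ± 0.15, adjusted p = 0.0235), and in Layer 6 corticothalamic neuron-like nuclei 43.3, 35.2 and 41.3 against 28.7, 27.3 and 20.2 CPM (-0.67 ± 0.17, adjusted p = 0.0164). The groups did not overlap in any of the 3. Of 24 types, 22 had a negative log2 fold change, with a median of -0.37. After free RNA was subtracted, the call in Parvalbumin interneuron-like nuclei passed (-0.62, adjusted p = 0.0204), the call in direct-pathway striatal neuron-like nuclei did not (-0.69, adjusted p = 0.0548), and in Layer 6 corticothalamic neuron-like nuclei the difference was -0.06 (adjusted p = 0.951). Each of the 3 calls was lost in 3 or 4 of the 9 fits that left out 1 mouse, with log2 fold changes of -0.50 or below in each such fit.

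Counting only whether the 3 aged values all lay on 1 side of the 3 young ones, Fam19a1 was lower in 11 types and higher in 1, the near-projecting neuron-like nuclei, Fam19a5 was lower in 8, and Fam19a4 showed 0. Fam19a2 was lower in 9 types and higher in 0, a description that includes the microglia-like nuclei from which the family was chosen. Over all genes, 23.6% of gene and type pairs had groups that did not overlap.

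Fam19a4 in oligodendrocyte precursor-like nuclei was 90.3, 79.1 and 84.5 CPM in young, 72.0, 109 and 92.1 in the aged AAV-EGFP group and 113, 106 and 92.0 in the aged AAV-B3GNT3 group. The groups overlapped in both comparisons. The log2 fold change with age was 0.11 ± 0.17 (edgeR adjusted p = 0.770). For AAV-B3GNT3 it was 0.17 ± 0.17 (adjusted p = 0.739), and neither difference exceeded the spread between mice.

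The second comparison asked what differed between AAV-B3GNT3 and AAV-EGFP in aged mice, and its controls are the aged AAV-EGFP mice of the first. Of the 52 pairs, 3 passed, against 1.48% over all genes (0.963% lower and 0.513% higher, with 0.372% in upper-layer cortical, 2.22% in middle-layer cortical and 0.809% in Parvalbumin interneuron-like nuclei). In upper-layer cortical neuron-like nuclei Fam19a1 was 2564, 2624 and 1787 CPM with AAV-EGFP and 1170, 1406 and 1183 with AAV-B3GNT3, with 2774, 2559 and 2774 in young mice. All 3 AAV-B3GNT3 values were below all others, and Fam19a1 fell (log2 fold change -0.89 ± 0.16, edgeR adjusted p = 0.0340). In middle-layer cortical neuron-like nuclei it was 542, 645 and 446 CPM with AAV-EGFP and 389, 350 and 334 with AAV-B3GNT3, again without overlap (-0.61 ± 0.14, adjusted p = 0.0197).

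After subtraction of free RNA, 98520 of 104562 Fam19a1 UMIs were left in upper-layer and 7025 of 9124 in middle-layer cortical neuron-like nuclei. With the subtracted sums the differences were -0.85 (edgeR adjusted p = 0.0537) and -0.65 (adjusted p = 0.0699), close in size to those above and not past the threshold. The call in upper-layer nuclei was also lost when only the 2 groups were fitted (adjusted p = 0.0777) and in 5 of 9 fits that left out 1 mouse, and that in middle-layer nuclei in 3 of 9. All 6 types with at least 500 CPM of Fam19a1 had a negative log2 fold change, from -0.89 to -0.23, and 1 of them passed. In CA1 and subiculum neuron-like nuclei, for example, it was 4549, 3765 and 3174 CPM with AAV-EGFP and 1894, 1671 and 3147 with AAV-B3GNT3 (-0.77 ± 0.20, adjusted p = 0.0896). In types below 500 CPM the median log2 fold change was 0.29.

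Fam19a5 rose with AAV-B3GNT3 in Parvalbumin interneuron-like nuclei, where the aged AAV-EGFP values of 152, 149 and 167 CPM stood against 217, 256 and 209 (log2 fold change 0.54 ± 0.13, edgeR adjusted p = 0.0424). The AAV-B3GNT3 values overlapped the young ones. Of 24 types, 21 had a positive log2 fold change for Fam19a5, with a median of 0.29, and only this type passed. The call was lost when the free RNA was subtracted (0.55, adjusted p = 0.0508), and in 5 of 9 fits that left out 1 mouse. By overlap alone, Fam19a1 was lower in 4 types and higher in 4, Fam19a2 lower in 3 and higher in 4, and Fam19a5 higher in 2, where 18.6% of all gene and type pairs did not overlap. The Fam19a2 count includes the microglia-like nuclei from which the family was chosen, so it is a description.

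**Figure D2:**
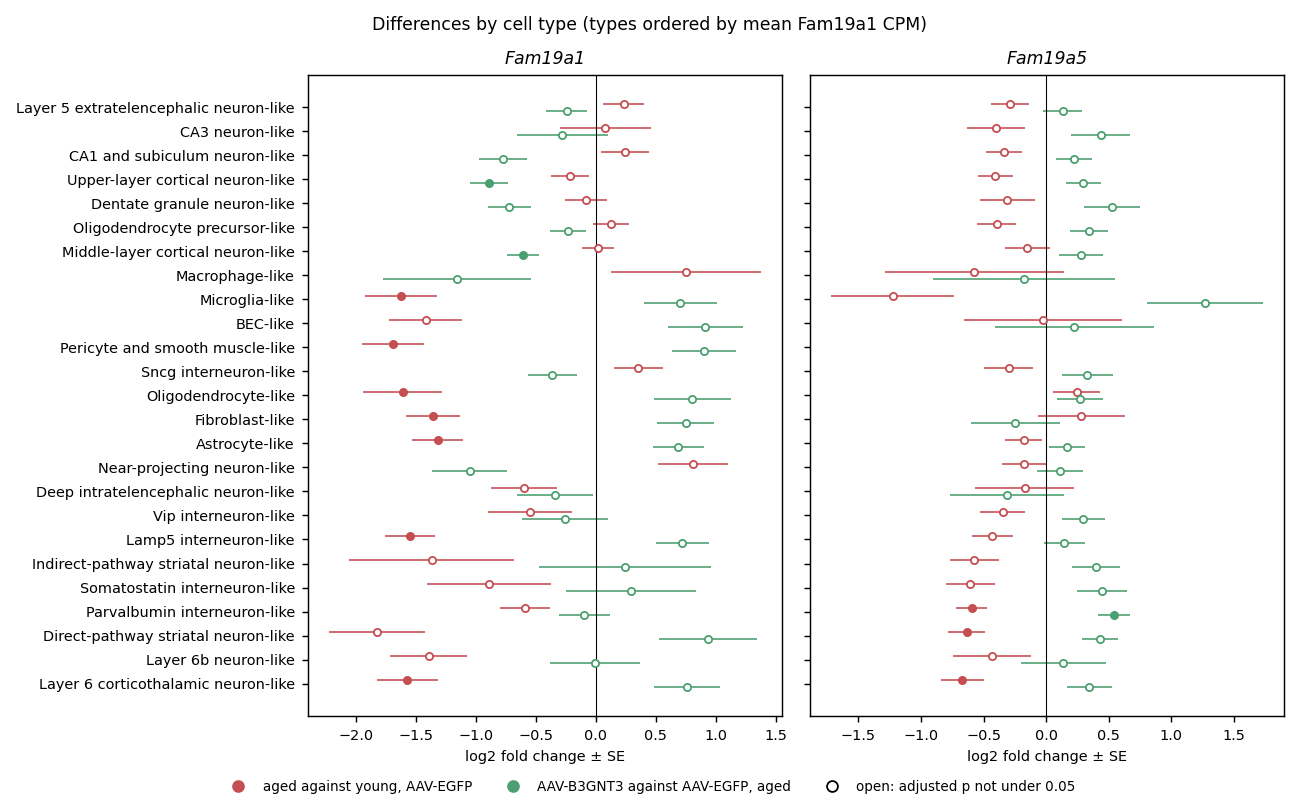
Log2 fold changes ± SE of Fam19a1 and Fam19a5 in each cell type, for aged against young AAV-EGFP mice and for AAV-B3GNT3 against AAV-EGFP in aged mice (3 mice per group). Filled points passed an edgeR adjusted p of 0.05, and Fam19a5 has no point in pericyte and smooth muscle-like nuclei, where it was too low to test. Fam19a1 calls with age, 7 in all, lie in types with low levels, and the types with the highest levels, at the top, lie near 0 with age.

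**Figure D3:**
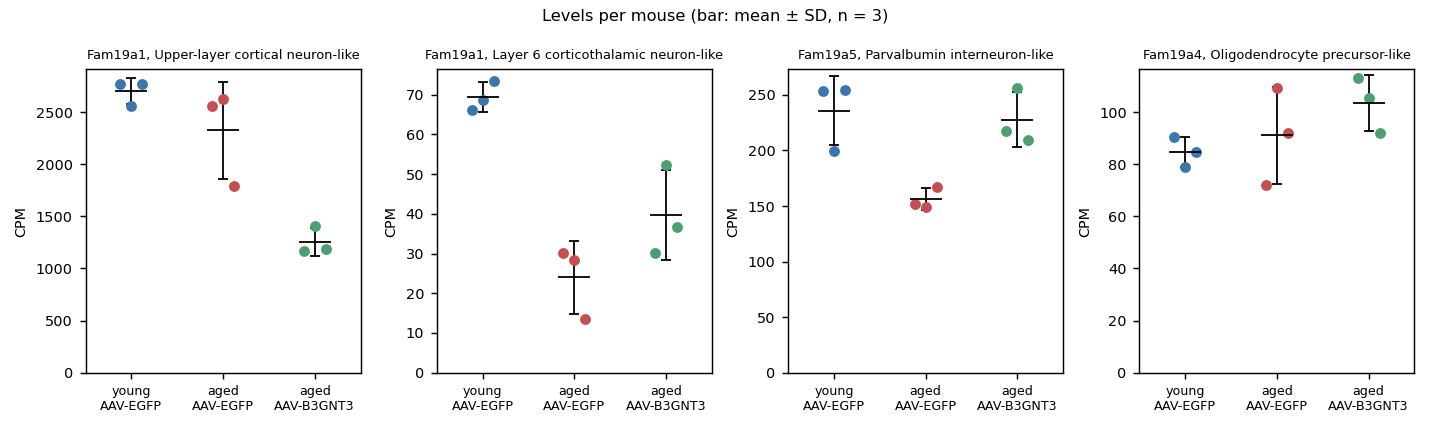
Levels per mouse (points) with mean ± SD (n = 3) in CPM, for Fam19a1 in upper-layer cortical and Layer 6 corticothalamic neuron-like nuclei, Fam19a5 in Parvalbumin interneuron-like and Fam19a4 in oligodendrocyte precursor-like nuclei. The 3 AAV-B3GNT3 values of Fam19a1 in upper-layer nuclei (1170 to 1406 CPM) lie below all others, and the Fam19a4 groups overlap.

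Microglia-like nuclei numbered 1917, and all 9 microglia markers were detected in each library. Their summed marker level was 5351 to 8872 CPM, against 107 to 252 in the highest other class apart from macrophage-like nuclei. Macrophage-like nuclei stood closer, with means of 304 CPM for Csf1r and 208 for P2ry12. Csf1r (618 CPM), P2ry12 (901) and Cx3cr1 (545) were all well counted. These genes are in the marker list that named the class, so their levels describe it and are not a separate check of the name.

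Fam19a2 in microglia-like nuclei was 282, 195 and 176 CPM in young mice, 54.6, 56.2 and 27.4 in aged AAV-EGFP mice and 83.5, 237 and 166 in aged AAV-B3GNT3 mice. The aged AAV-EGFP values lay below all others, and the young and aged AAV-B3GNT3 values overlapped. As a description, the log2 fold change was -2.30 ± 0.39 with age and 1.86 ± 0.39 with AAV-B3GNT3. The size rested on how doublets (droplets with more than 1 nucleus) were handled, since without their removal it was -1.14 with age and 0.90 with AAV-B3GNT3.

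Other non-neuronal classes showed the same direction. With age the log2 fold change of Fam19a2 was -2.07 in pericyte and smooth muscle-like, -1.86 in astrocyte-like, -1.39 in oligodendrocyte-like, -1.28 in fibroblast-like, -1.25 in BEC-like and -1.16 in macrophage-like nuclei. With AAV-B3GNT3 it was 1.31, 1.41, 1.07, 0.88, 1.32 and 0.83 in the same order. In astrocyte-like nuclei, for example, Fam19a2 was 104, 110 and 111 CPM in young, 41.8, 36.9 and 12.7 in the aged AAV-EGFP group and 61.4, 96.2 and 80.4 in the aged AAV-B3GNT3 group. The classes in which Fam19a2 was high did not follow. Oligodendrocyte precursor-like nuclei had 614, 699.8 and 670 CPM in young and 639, 763 and 530 in aged AAV-EGFP mice, a log2 fold change of -0.04. With age it was 0.17 in dentate granule neuron-like, -0.04 in Parvalbumin interneuron-like and -0.10 in Vip interneuron-like nuclei. With AAV-B3GNT3, all 9 types with a mean of at least 500 CPM had a negative log2 fold change, from -0.66 to -0.12. Of the 16 types below 500 CPM, 10 had a positive and 6 a negative one.

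The share of microglia-like nuclei with a Fam19a2 UMI was 30.7% in young mice, 6.37% in the aged AAV-EGFP group and 22.6% in the aged AAV-B3GNT3 group, at median depths of 1938, 1427 and 1752 UMIs. Thinned to 1000 UMIs per nucleus, the shares were 15.5, 4.53 and 13.8%, with 14, 129 and 36 shallower nuclei left out. As a mean of the shares in the 9 mice, it was 19.9% in microglia-like nuclei (median 1688 UMIs, 365 of 1917 nuclei), 18.8% in astrocyte-like (2977 UMIs), 19.3% in oligodendrocyte-like (1997 UMIs), 17.4% in pericyte and smooth muscle-like (1988 UMIs) and 21.9% in BEC-like nuclei (1905 UMIs), against 78.1% in oligodendrocyte precursor-like (4281 UMIs) and 98.1% in dentate granule neuron-like nuclei (7893 UMIs). In young mice alone it was 30.7% in microglia-like, 31.2% in BEC-like, 27.8% in oligodendrocyte-like and 26.1% in astrocyte-like nuclei. The share in microglia-like nuclei thus lay among those of classes with low Fam19a2, at depths that differed between classes.

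Whether Fam19a2 in microglia-like nuclei matched free neuronal RNA was examined from ratios. A single source of free RNA keeps its genes in fixed proportion in every class of a library. Therefore 12 neuronal reference genes, such as the synaptic genes Syt1 and Snap25 and the neuronal splicing factor Rbfox3, were summed in microglia-like nuclei. The number of Fam19a2 UMIs that would accompany them in the proportions of the whole library was then compared with the number counted. A ratio of 1 means that Fam19a2 is present in proportion to the reference genes. Over the 9 libraries, 494 Fam19a2 UMIs were counted and 535 were expected from 12306 reference UMIs, and the median ratio was 0.853, with a range of 0.382 to 1.41.

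By mouse, the ratio was 1.41, 1.03 and 1.07 in young, 0.415, 0.382 and 0.475 in the aged AAV-EGFP group and 0.581, 1.24 and 0.853 in the aged AAV-B3GNT3 group. The exact Poisson 95% interval, which covers counting error only, lay above 1 in 2 mice, young replicate 1 (1.17 to 1.69) and aged AAV-B3GNT3 replicate 2 (1.03 to 1.48). It lay below 1 in 4, the 3 aged AAV-EGFP mice and aged AAV-B3GNT3 replicate 1. In the 2 mice above 1, a single nucleus held 21 of 120 and 20 of 124 Fam19a2 UMIs in turn. The interval treats UMIs as independent, so it is too narrow for such counts. Young mice thus had Fam19a2 at or above the proportion of the reference genes, and aged AAV-EGFP mice below it. The reference genes themselves were lower in aged AAV-EGFP microglia-like nuclei in 2 of 3 mice, at 2686, 3832 and 1579 CPM of raw totals against 4579, 3941 and 3503 in young and 3460, 3756 and 3487 in aged AAV-B3GNT3 mice, a narrower gap than that of Fam19a2.

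**Figure D4:**
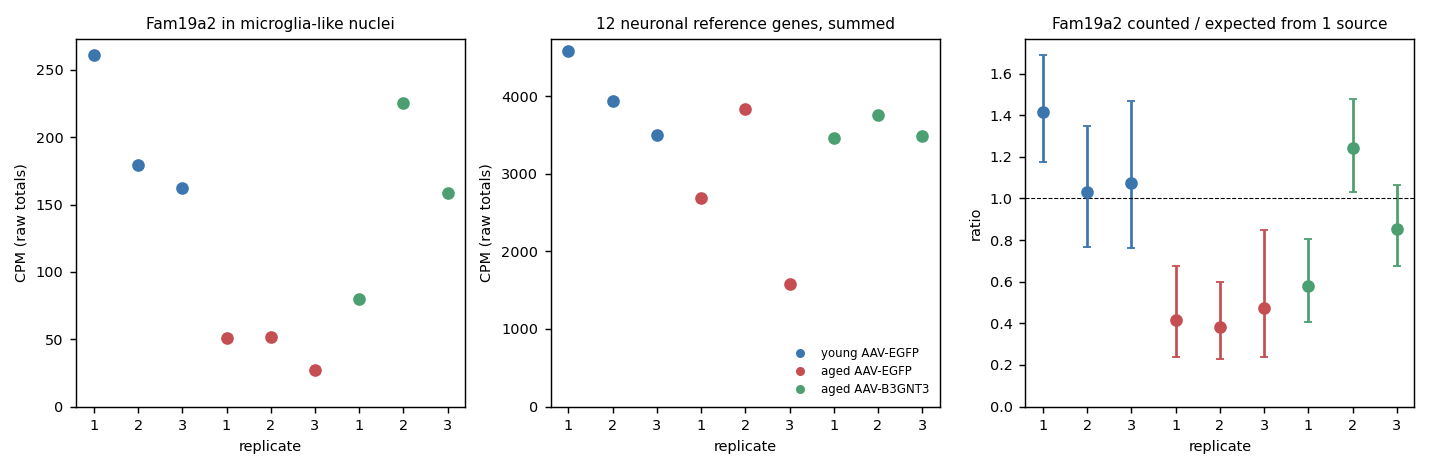
Fam19a2 (left) and the sum of 12 neuronal reference genes (middle) in microglia-like nuclei, in CPM of raw totals per mouse, and the ratio of counted to expected Fam19a2 UMIs (right) with exact Poisson 95% intervals. The dashed line marks a ratio of 1. The 3 aged AAV-EGFP mice lie between 0.382 and 0.475.

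The reference genes gave a scale for such ratios. When each was predicted from the other 11 in microglia-like nuclei, their median ratios ran from 0.550 for Rbfox3 to 2.04 for Slc17a7, the vesicular glutamate transporter, and 8 of 12 exceeded that of Fam19a2. The median Fam19a2 ratio in microglia-like nuclei thus lay inside the spread of these medians. The 3 aged AAV-EGFP mice, at 0.415, 0.382 and 0.475, were below the lowest median. Single-mouse ratios of the reference genes went as low as 0.424 for Rbfox3 and 0.496 for Grin2a. The aged AAV-EGFP values of 0.415 and 0.382 lay below these too, and what set this group apart was not tested. The median Fam19a2 ratio in microglia-like nuclei was near those in other classes with low Fam19a2. These were 0.837 in fibroblast-like, 0.863 in astrocyte-like, 0.893 in macrophage-like and 0.896 in pericyte and smooth muscle-like nuclei. In oligodendrocyte-like nuclei the median was 1.04, and in BEC-like nuclei 1.31. Oligodendrocyte precursor-like nuclei had 7.37, with intervals above 1 in all 9 mice, and of the reference genes only Gad1 (8.36) was higher there.

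Group means of the ratio also differed outside microglia. In microglia-like nuclei they were 1.17 ± 0.21 in young mice, 0.424 ± 0.047 with aged AAV-EGFP and 0.892 ± 0.33 with aged AAV-B3GNT3 (SD, n = 3), and 0.944 ± 0.070, 0.505 ± 0.14 and 0.891 ± 0.065 in astrocyte-like nuclei. In oligodendrocyte-like nuclei they were 1.14 ± 0.086, 0.809 ± 0.20 and 0.982 ± 0.090. The lowest mean was thus that of aged AAV-EGFP mice in all 3 classes, and these differences were not tested. In astrocyte-like nuclei Grin2b alone gave 11018 of the 56954 reference UMIs, where 6330 were predicted from the other 11 genes. Its part in the astrocyte-like ratios was not tested.

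Fam19a1 in microglia-like nuclei had a median ratio of 0.989 (range 0.663 to 1.41), with 904 UMIs counted and 863 expected, and 5 of 12 reference genes exceeded it. Fam19a5 had a median of 0.573, with 118 UMIs counted and 210.5 expected, and its interval lay above 1 in 0 of 9 mice. In contrast, Fam19a5 had medians of 4.94 in astrocyte-like, 8.55 in oligodendrocyte-like and 9.44 in oligodendrocyte precursor-like nuclei, all with intervals above 1 in 9 of 9 mice. Fam19a1 also had a high ratio in oligodendrocyte precursor-like nuclei, 4.26.

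**Figure D5:**
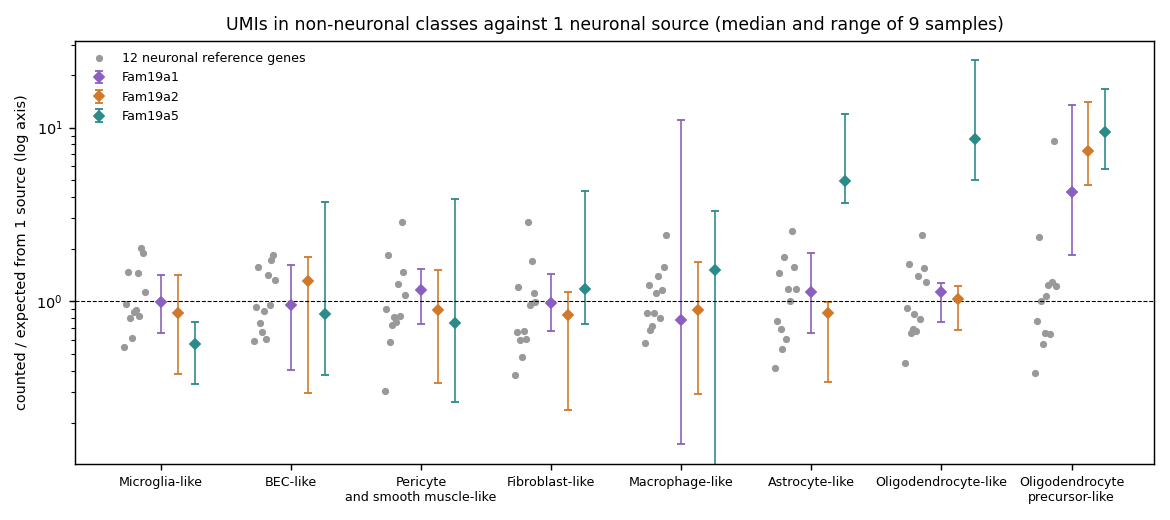
Ratio of counted to expected UMIs (log axis) of Fam19a1, Fam19a2 and Fam19a5 in 8 non-neuronal classes, as median (diamond) and range (bar) over 9 mice, with the medians of the 12 reference genes in grey. Fam19a2 has a median of 0.837 to 1.31 in 7 classes, inside the spread of the reference genes, and of 7.37 in oligodendrocyte precursor-like nuclei, where only Gad1 is higher. The lower bar of Fam19a5 in macrophage-like nuclei runs off the axis because its lowest value is 0.

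Per nucleus, 1552 of 1917 microglia-like nuclei held 0 Fam19a2 UMIs, 301 held 1, 47 held 2 and 11 held 3. The other 6 held 21, 20, 8, 7, 6 and 4 UMIs. These 6 came from young replicates 1 and 2 and aged AAV-B3GNT3 replicate 2, had 2628 to 14272 UMIs in all, and held 12 to 148 UMIs of the neuronal reference genes. Nearly every microglia-like nucleus held at least 1 such UMI. The nuclei with 21 and 20 Fam19a2 UMIs had 13183 and 14272 UMIs in all, against a class median of 1688. They held 148 and 133 reference UMIs, and whether they were doublets with neurons was not tested. By the counts per nucleus, most Fam19a2 UMIs were single molecules spread over many nuclei. Restricted to nuclei with at most 3 times their library's median depth, a limit added after these nuclei were seen, the median ratio was 0.973 over 431 UMIs. Free RNA was also subtracted, a step that itself assumes a single source. It left 63 of 494 Fam19a2 UMIs (12.8%) in microglia-like nuclei and 0 of 2150 in astrocyte-like nuclei. In oligodendrocyte precursor-like nuclei 85.4% were left, and in Parvalbumin interneuron-like nuclei 97.4%. For the 3 non-neuronal classes named here, the subtracted share came from the same 12 reference genes as the ratios. What was left in them restates those ratios and is not a separate result.

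Among reported partners of TAFA proteins, Nrxn2 passed with age in 3 of 25 types and Nrxn3 in 4 of 25, all lower, against the 5.25% of all pairs given above. In the types with these calls, the share of all genes that passed ran from 7.03% in fibroblast-like to 21.4% in oligodendrocyte-like nuclei. Neurexin Nrxn2 fell in upper-layer cortical (log2 fold change -0.92 ± 0.13, edgeR adjusted p = 0.00163), Layer 6 corticothalamic (-0.68 ± 0.13, adjusted p = 0.00269) and middle-layer cortical neuron-like nuclei (-0.66 ± 0.15, adjusted p = 0.00618). Nrxn3 fell in astrocyte-like (-1.40 ± 0.19, adjusted p = 0.000562), fibroblast-like (-1.34 ± 0.19, adjusted p = 0.000326), pericyte and smooth muscle-like (-1.26 ± 0.21, adjusted p = 0.00124) and oligodendrocyte-like nuclei (-1.19 ± 0.18, adjusted p = 0.00200). The Nrxn3 calls were thus in non-neuronal classes, where the estimated free RNA was also lower in aged AAV-EGFP than in young mice, without overlap. Its part in them was not tested.

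With AAV-B3GNT3, Nrxn3 passed in 3 of 25 types and Nrxn2 in 1 of 25, all higher, against 1.48% of all pairs. In the types with these calls the share of all genes that passed was higher. It was 1.93% in fibroblast-like, 9.32% in oligodendrocyte-like, 4.13% in astrocyte-like and 2.96% in Layer 6 corticothalamic neuron-like nuclei. Nrxn3 rose in fibroblast-like (log2 fold change 0.93 ± 0.19, edgeR adjusted p = 0.0179), oligodendrocyte-like (0.80 ± 0.18, adjusted p = 0.0173) and astrocyte-like nuclei (0.79 ± 0.19, adjusted p = 0.0291). In these classes the estimated free RNA was also higher in aged AAV-B3GNT3 than in aged AAV-EGFP mice, without overlap. Its part in the Nrxn3 calls was not tested. Nrxn2 rose in Layer 6 corticothalamic neuron-like nuclei (0.51 ± 0.13, edgeR adjusted p = 0.0391). Nrxn2 had a positive log2 fold change in 25 of 25 types with AAV-B3GNT3 and a negative one in 24 of 25 with age, comparisons that share the aged AAV-EGFP mice. The receptor genes gave less, since Lrrc4b passed in 0 of 21 types in either comparison, Gpr1 in 0 of 3, S1pr2 in 0 of 1, and Fpr1 was too low to test in any.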

How the data were processed

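Nuclei of cortex and hippocampus from 9 mice were measured by 10x Genomics single-nucleus RNA sequencing, 1 library per mouse. The authors deposited raw UMI counts per gene and barcode for each library, mapped to mm10 (GRCm38) with Cell Ranger, which the submitters' processing notes give as version 4.0.0 and the matrix headers as version 7.2.0. Whether intronic reads or strand were used in counting is not given in the sources used here. The data hold 77823 barcodes.

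Nuclei were retained if 200 to 5000 genes were detected and mitochondrial genes made up no more than 10% of UMIs, and doublets were removed at 0.8% per 1000 barcodes from simulated pairs of nuclei, which left 70304 nuclei with a median of 2992 to 5331 UMIs per library. Nuclei were clustered with Leiden (resolution 0.3, and 1 for neurons on 30 principal components), leaving the members out of the genes used. Clusters were named from marker lists, and the thresholds for a name were set after the clusters were seen. A type was tested if every library held at least 10 of its nuclei. The members and gene lists were chosen with earlier results of these data known. The named genes were the 5 members in every type, reported partners (counts, and values for those called), the 3 genes most like each member, the 12 neuronal reference genes and microglia markers. Some of the listed genes are not reported here.

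UMI counts were summed per mouse and type and tested with edgeR's quasi-likelihood test (glmQLFit and glmQLFTest) on all 9 mice, with TMM scaling and Benjamini-Hochberg adjustment over all genes of the type at 0.05. Genes with low counts were filtered with edgeR's filterByExpr. The tests were checked on simulated counts with known changes. Mice with the same replicate number did not deviate together in most classes (mean correlations over 10 classes of -0.18 to 0.062), so the numbers were not used as a block. The exception was age in oligodendrocyte-like nuclei, with correlations of 0.178, 0.147 and 0.285. Expected UMIs under a single source were the reference UMIs of the class times the member's ratio to them in all nuclei of the library. Free RNA was estimated as the lowest ratio, over the marker lists of other classes, of their level in a class to that in the library, and was an upper limit. Intervals are exact Poisson 95% intervals and cover counting error only. Alternatives were DESeq2, RLE scaling, no filter on low counts, only the groups compared, a replicate block, keeping doublets, dropping the limit of 5000 genes, subtracted free RNA, thinning to 1000 UMIs, other reference genes, and leaving out each mouse. Tools were R 4.3.3, edgeR 4.0.16, DESeq2 1.42.0, Python 3.11.15, numpy 2.4.6, scipy 1.17.1, scikit-learn 1.9.0, igraph 0.11.9, leidenalg 0.10.2 and matplotlib 3.10.9.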

Additional observations from a re-analysis of the deposited data

Results flagged for a closer look

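With age, every aged AAV-EGFP mouse had less Fam19a1 than every young mouse in 11 types and more in 1, the near-projecting neuron-like nuclei (log2 fold change 0.81, edgeR adjusted p = 0.202). Effects that went opposite ways in different types flagged this result, and the difference between the types was not tested. The 11 types were the 7 with a call and the BEC-like (-1.42), Deep intratelencephalic neuron-like (-0.60), direct-pathway striatal neuron-like (-1.82) and Layer 6b neuron-like nuclei (-1.39). Over all genes, 23.6% of gene and type pairs had age groups that did not overlap.

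With AAV-B3GNT3, all treated mice lay below all aged AAV-EGFP mice for Fam19a1 in 4 types and above them in 4. Those below were CA1 and subiculum (-0.77), middle-layer cortical (-0.61), near-projecting (-1.05) and upper-layer cortical neuron-like nuclei (-0.89). Those above were BEC-like (0.91), pericyte and smooth muscle-like (0.90), fibroblast-like (0.75) and Lamp5 interneuron-like nuclei (0.72). The difference between these types was not tested. Over all genes, 18.6% of gene and type pairs did not overlap in this comparison.

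For Fam19a2 all treated mice lay below all aged AAV-EGFP mice in 3 types and above them in 4, again with no test of the difference. The 3 were Layer 5 extratelencephalic (-0.70), upper-layer cortical (-0.37) and Vip interneuron-like nuclei (-0.12, smaller than its SE of 0.14). The 4 were microglia-like (1.86), astrocyte-like (1.41), BEC-like (1.32) and pericyte and smooth muscle-like nuclei (1.31). The share over all genes was the same 18.6% of pairs, given for scale only. The counts include Fam19a2 in microglia-like nuclei, from which the family was chosen, so they are a description. Free RNA was estimated higher in aged AAV-B3GNT3 than in aged AAV-EGFP mice in microglia-like, astrocyte-like and pericyte and smooth muscle-like nuclei, without overlap, and in BEC-like nuclei with overlap (21.7 to 36.2% against 13.6 to 35.7%), and its part in these differences was not tested.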

How the results depend on the processing

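For the calls of Fam19a1, Fam19a4 and Fam19a5 (and of Fam19a3 where a setting let it be tested), the count with age (10) was 12 with DESeq2, 10 with RLE scaling, 14 with only the 2 groups fitted, 10 with no upper limit on genes, 7 without doublet removal, 17 of 85 pairs with no filter on low counts and 2 of 38 pairs with free RNA subtracted. Leaving out 1 mouse gave 6 (without young replicate 1) to 17 (without aged AAV-EGFP replicate 1). The count with AAV-B3GNT3 (3) was 5 with DESeq2, 3 with RLE scaling, 11 with no filter, 1 with free RNA subtracted and 2 under each of the other settings. Leaving out 1 mouse gave 0 (without aged AAV-B3GNT3 replicate 2) to 6 (without aged AAV-B3GNT3 replicate 3), and 1 each without young replicate 3, aged AAV-EGFP replicate 2 or aged AAV-B3GNT3 replicate 1. The filter changes which pairs are tested, and subtraction removes pairs, while the cause of the other changes was not tested. With the replicate number as a block, though the numbers did not pair the mice in most classes, the counts were 12 and 2. In oligodendrocyte-like nuclei, where same-numbered mice did deviate together with age, the Fam19a1 call was kept under the block (log2 fold change -1.64, edgeR adjusted p = 0.0158). Over the called pairs and the settings in which they were tested, 178 kept their side of the threshold, 39 lost it and 0 reversed. The Fam19a1 calls that fell under the filter on low counts after subtraction are not in this tally. They were those in microglia-like, fibroblast-like, Lamp5 interneuron-like and Layer 6 corticothalamic neuron-like nuclei. For Fam19a2 in microglia-like nuclei, the median ratio lay between 0.717 and 0.941 when 1 mouse was left out, between 0.809 and 0.934 when 1 reference gene was left out, and was 0.898 without doublet removal, 0.774 without the upper limit, 1.05 with reference genes over 100 kb and 0.879 with neurons as the source. In the 316 nuclei without a UMI of Snap25, Syt1 or Camk2a it was 1.06 over 33 UMIs, where the choice of nuclei itself lowers the expected number, so nothing is read from it. Thinning to 1000 UMIs lowered the share of nuclei with a UMI from 91.0 to 75.5% for Fam19a1 in Layer 5 extratelencephalic neuron-like, from 98.1 to 77.6% for Fam19a2 in dentate granule neuron-like, from 28.0 to 7.63% for Fam19a4 in oligodendrocyte precursor-like and from 96.9 to 41.9% for Fam19a5 in CA3 neuron-like nuclei, so shares depend on depth.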

Other observations

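B3gnt3, the mouse gene of the enzyme the virus carries, had 7, 3 and 1 UMIs in the BEC-like nuclei of young mice, 0 in each of the 3 aged AAV-EGFP mice and 0, 2 and 4 in aged AAV-B3GNT3 mice, out of 129605 to 288526 UMIs per mouse in that class. The counts do not separate AAV-B3GNT3 from AAV-EGFP at this depth, and whether a UMI of the viral transcript would be assigned to B3gnt3 is not given in the sources used here.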
